A study of Mus musculus with 5 samples.

Results

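A set of 9 genes that mark naive, recirculating T lymphocytes were followed across the cell classes of mouse mammary tumors: Lef1, Tcf7, Satb1, Bach2 and Ssbp2, which encode nuclear regulators, the differentiation-associated gene Dapl1, and the surface receptors Ccr7, S1pr1 and Il7r. They were taken by symbol from the gene table that all matrices share, and each of the 9 symbols matched a single row among 31053 genes. Dapl1 lies on chromosome 2 (59484653 to 59505020, plus strand of mm10) and S1pr1 and Lef1 on chromosome 3 (115710433 to 115715072, minus, and 131110471 to 131224356, plus). Bach2 lies on chromosome 4 (32238804 to 32586108, plus), Tcf7 and Ccr7 on chromosome 11 (52252371 to 52283014 and 99144196 to 99155077, both minus) and Ssbp2 on chromosome 13 (91460283 to 91703429, plus). Il7r lies on chromosome 15 (9505788 to 9530176, minus) and Satb1 on chromosome 17 (51736187 to 51833290, minus).

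A naive T cell travels between blood and lymphoid organs until it meets its antigen. CCR7 lets it enter lymph nodes along the chemokines CCL19 and CCL21, S1PR1 lets it leave along a gradient of sphingosine-1-phosphate, and the alpha chain of the interleukin-7 receptor, encoded by Il7r, carries a survival signal. TCF-1 (Tcf7) and LEF-1 (Lef1) are HMG-box transcription factors that share target sites and can act with beta-catenin. SATB1 organizes chromatin in lymphocytes, and BACH2 is a repressor that restrains effector differentiation. Activated T cells and cells that settle in tissue lower much of this program.

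The tumors came from MMTV-PyMT mice, where the polyoma middle T oncogene is driven by a viral promoter active in mammary epithelium. From 7 weeks of age the mice received 5 mg/kg of isotype IgG2a (clone C1.18.4) or of the anti-VEGF-A antibody B20-4.1.1 for 6 weeks, and viable DAPI- cells were sorted and sequenced in droplets. There were 6 isotype tumors in 2 pools (QAG364, QAG397 and QAG404 in isotype pool 1, and QAG432, QAG452 and QAG465 in isotype pool 2). The 9 B20-4.1.1 tumors were in 3 pools (QAG348, QAG356 and QAG357 in pool 1, QAG359, QAG360 and QAG365 in pool 2, and QAG370, QAG372 and QAG373 in pool 3). Each pool was 1 library and held only tumors given the same antibody. Pool and treatment therefore cannot be told apart, and treatments cannot be compared within a pool. The labels do not give the hypoxia class of the B20-4.1.1 tumors. P-values measure the spread between tumors.

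Between 4014509 and 23726246 UMIs (unique molecular identifiers, each standing for 1 captured transcript) were deposited per tumor. No cell barcode occurred in more than 1 tumor of a pool, and 94 of 30246 distinct barcodes occurred in more than 1 pool. Of 30340 deposited cells, 19533 passed the filters. T cells were gated by at least 2 of 6 CD3 and T cell receptor genes with fewer than 2 of 8 cytotoxic genes, and cytotoxic cells by at least 2 of those 8. None of the 9 genes was used for gating. This gave 1393 T, 1408 cytotoxic, 157 B, 95 dendritic, 1267 macrophage and 12350 epithelial cells. Trbc2 was detected in 96.8% of T cells, Nkg7 in 97.7% of cytotoxic cells, Cd79a in 99.4% of B cells and Flt3 in 57.9% of dendritic cells. Each is a gate gene and the most often detected of its list, so these shares do not test the gates. In cytotoxic cells, Klrd1 was detected in 90.0%, Gzmb in 51.1% and Klrk1 in 44.5%. Prf1 (18.3%), Klre1 (16.2%) and Gzma (7.95%) were seen in fewer of them. Of the cytotoxic cells 93.4% also carried at least 2 of the 6 CD3 and T cell receptor genes, which are called CD3 genes below. Trac was detected in 58.5% of them against 87.9% of T cells, and Trbc1 in 67.5% against 53.8%. The natural killer receptor gene Ncr1 was detected in 25.8% of them. Natural killer and T cells were not told apart within this class.

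A group of 3 B20-4.1.1 tumors stood apart. In QAG357, QAG359 and QAG365, at least 2 CD3 genes were detected in 62.7%, 72.8% and 70.9% of the kept cells, against 4.38% to 27.2% in the other 12 tumors. These 3 tumors held 496, 258 and 449 T cells and 74, 26 and 48 of the 157 B cells, while the other tumors held 1 to 37 T cells each. They are called T-cell-rich here, after their cell counts and not after any label. Results that could be computed without them are given both ways, and those that could not are named as resting on them. The 3 tumors held 148 of the 157 B cells as well, and the labels do not say whether lymphoid tissue next to a tumor was taken with it. Whether the levels below belong to the tumor itself therefore cannot be told from these data.

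Over all tumors, each of the 9 genes was detected more often in T cells than in epithelial cells, which serve as a class outside the lymphocytes. Levels are given as UMIs of the gene per 10000 UMIs of all genes in the cells of a class, over all tumors. Lef1 stood at 4.97 in T cells, 0.750 in cytotoxic cells, 0.0877 in B cells and 0.0119 in dendritic cells. Tcf7 stood at 3.04, 1.18, 0.0351 and 0.382 in the same order. Because 1203 of the 1393 T cells came from the T-cell-rich tumors, these levels are largely theirs. In the other 12 tumors Lef1 stood at 2.09 in T and 0.158 in cytotoxic cells and Tcf7 at 2.10 and 0.753. Both were near 0 in B cells, and Tcf7 but not Lef1 reached dendritic cells at a level above the 0.0358 that 3 counts would give there.

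Satb1 and Bach2 were shared with B cells. Satb1 stood at 3.93 in T cells, 1.34 in cytotoxic cells, 2.09 in B cells and 0.119 in dendritic cells. For Bach2 the levels were 0.511, 0.128, 0.929 and 0.0596, highest in B cells, where the protein is also known as a regulator of class switching. Ssbp2, a single-stranded DNA binding protein that stabilizes LIM-domain complexes, stood at 0.385, 0.152, 0.0351 and 0.0835. Outside the T-cell-rich tumors, T and cytotoxic cells were at 2.45 and 0.945 for Satb1, 0.451 and 0.0985 for Bach2 and 0.143 and 0.136 for Ssbp2, so that Ssbp2 no longer set the classes apart there.

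Dapl1 was almost restricted to T and cytotoxic cells in these data, at 3.53 and 0.945, with 1 UMI among all B cells and none among 95 dendritic cells. A count of 0 there allows up to 0.0358 per 10000. Ccr7 stood at 3.25 in T cells, 0.637 in cytotoxic cells, 2.91 in B cells and 8.01 in dendritic cells, the highest of the 6 classes. S1pr1 stood at 3.97, 0.606 and 1.37 in T, cytotoxic and B cells and at 0 in dendritic cells. Il7r stood at 5.14 in T cells, 1.07 in cytotoxic cells, 0.0175 in B cells, 1.79 in dendritic cells and 1.24 in macrophages. In the 12 other tumors the T and cytotoxic levels were 0.855 and 0.0872 for Dapl1, 1.25 and 0.118 for Ccr7, 2.06 and 0.121 for S1pr1 and 6.33 and 0.350 for Il7r. Il7r was thus the receptor whose T cell level was not lower there. The B cell levels could not be set apart in this way, since 9 B cells lay outside the T-cell-rich tumors.

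The share of cells with a UMI followed the same pattern. In T cells of all tumors it ranged from 13.4% for Ssbp2 and 15.9% for Bach2 to 73.4% for Lef1, at a median of 3555 UMIs per cell. Without the T-cell-rich tumors it was 6.32% for Ssbp2, 14.2% for Bach2 and 37.9% for Lef1, with Il7r the most often detected at 62.6%. In epithelial cells, at a median of 8569 UMIs, it was 0.275% to 0.591% for Lef1, Ccr7, S1pr1, Dapl1 and Il7r, 2.00% for Tcf7, 6.64% for Bach2, 6.70% for Ssbp2 and 18.0% for Satb1. Depth differed between the classes, so each cell was also thinned to 2500 UMIs. The thinned shares in T and epithelial cells were 63.2% and 0.121% for Lef1, 53.1% and 5.76% for Satb1, 10.3% and 2.01% for Bach2 and 10.3% and 2.15% for Ssbp2.

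**Figure D1:**
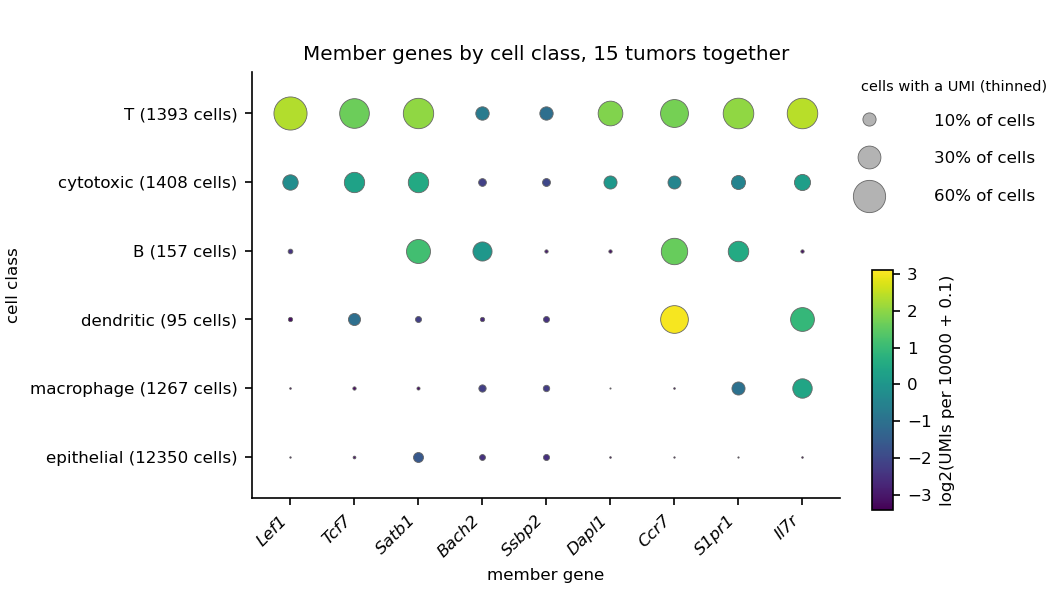
Each dot gives 1 member gene (x axis) in 1 cell class (y axis) over the 15 tumors together. Dot area is the percentage of cells with a UMI after thinning to 2500 UMIs per cell, and color is log2 of UMIs per 10000 plus 0.1. All 9 genes are seen in T cells, Satb1, Bach2, Ccr7 and S1pr1 are shared with B cells, and Ccr7 and Il7r with dendritic cells.

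The levels in single tumors were then compared between treatments. At least 20 T cells were found in 3 isotype tumors (QAG397, QAG404 and QAG465) and 4 B20-4.1.1 tumors (QAG357, QAG359, QAG360 and QAG365), so 3 of the 4 treated tumors were the T-cell-rich ones. Lef1 was at 2.53, 1.40 and 1.18 UMIs per 10000 in the isotype tumors and at 5.26, 5.79, 3.73 and 5.56 in the B20-4.1.1 tumors, in the order just given. The groups did not overlap, and QAG360, the treated tumor that was not T-cell-rich, was the lowest of its group. The fitted difference was a log2 fold change of 1.70 ± 0.27 (SE, adjusted p = 0.0040, edgeR quasi-likelihood test over 2366 genes).

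Tcf7 was at 2.05, 2.34 and 2.15 without and at 3.04, 3.06, 2.80 and 3.44 with B20-4.1.1. The groups did not overlap here either, yet the difference of 0.63 ± 0.19 on the log2 scale did not pass the test (adjusted p = 0.062, edgeR). Satb1 was at 2.83, 2.10 and 3.02 against 4.07, 3.52, 2.61 and 4.71, with QAG360 inside the isotype range (0.63 ± 0.24, adjusted p = 0.14, edgeR). Bach2 and Ssbp2 were below the filter on low counts and were not tested. Bach2 was at 0.390, 0.467 and 0.646 against 0.455, 0.562, 0.560 and 0.563, and the groups overlapped. Ssbp2 was at 0.195, 0 and 0.108 against 0.444, 0.427, 0.249 and 0.416, without overlap, on 0 to 2 UMIs per isotype tumor.

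Dapl1, whose product is named for its likeness to a death-associated protein and whose transcript marks naive T cells, gave the largest fold of the members in this comparison. It was at 1.27, 0.467 and 1.29 in isotype tumors and at 3.68, 4.13, 1.31 and 4.28 in B20-4.1.1 tumors. The 3 T-cell-rich tumors were clearly higher, while QAG360 was level with 2 of the isotype tumors. The log2 fold change was 1.90 ± 0.43 (adjusted p = 0.021, edgeR).

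A promoter window, the 250 bases before the annotated start, was listed by RefSeq (GRCm38.p6) for 7 of the 9 members, some with several starts. Each window was searched on both strands for CTTTGAT (a TCF and LEF core), TGTTTAC (a FOXO core) and GGGTGTG (a KLF core), since LEF-1, FOXO1 and KLF2 are known regulators of this program. These letters occur in 3.21%, 3.17% and 6.93% of 32851 windows of the same length, and they do not overlap each other. Dapl1 held the FOXO core, and the most upstream Satb1 window and the second Tcf7 window held the KLF core. The 2 windows below are shown because their genes differ in how they moved, Dapl1 passing the test and Satb1 not. A match is a description of the letters only, and factor binding was not measured. Capitals mark the matched core, on the opposite strand in both.
Dapl1 (chr2:59484403-59484652, plus strand): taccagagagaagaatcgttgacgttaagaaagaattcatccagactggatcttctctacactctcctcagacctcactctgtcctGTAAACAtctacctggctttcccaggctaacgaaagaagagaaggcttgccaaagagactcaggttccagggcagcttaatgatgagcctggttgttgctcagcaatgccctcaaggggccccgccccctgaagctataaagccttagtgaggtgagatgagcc
Satb1 (chr17:51833291-51833540, minus strand): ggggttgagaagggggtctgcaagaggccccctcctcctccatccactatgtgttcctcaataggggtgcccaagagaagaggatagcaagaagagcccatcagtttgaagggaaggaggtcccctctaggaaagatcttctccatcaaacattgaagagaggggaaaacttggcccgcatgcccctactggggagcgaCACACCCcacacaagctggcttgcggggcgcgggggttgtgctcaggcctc

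The homing receptors followed Lef1. Ccr7 was at 1.36, 0.584 and 1.08 in T cells of the isotype tumors and at 2.41, 3.13, 1.74 and 5.06 in those of the B20-4.1.1 tumors, with QAG365 far above the rest (log2 fold change 1.76 ± 0.42, adjusted p = 0.026, edgeR). S1pr1 was at 2.53, 2.10 and 1.40 against 4.20, 3.38, 3.23 and 4.96 (1.10 ± 0.25, adjusted p = 0.021, edgeR). Neither receptor overlapped between the groups. For S1pr1, QAG360 was close to QAG359.

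Il7r did not follow the other receptors. It was at 6.53, 8.99 and 4.09 in isotype tumors and at 5.11, 4.86, 3.42 and 4.78 in B20-4.1.1 tumors, so that 2 isotype tumors lay above every treated one (-0.39 ± 0.24, adjusted p = 0.37, edgeR). Across the 7 tumors, the log2 level of Il7r correlated with the mean of the other 8 members at Pearson r = -0.54, whereas Ccr7, Dapl1 and Lef1 correlated at 0.97, 0.96 and 0.91. Bach2, at 0.0938, did not follow the others either, and Satb1, Ssbp2, S1pr1 and Tcf7 lay between 0.80 and 0.89. These are descriptions over 7 points that share pools.

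**Figure D2:**
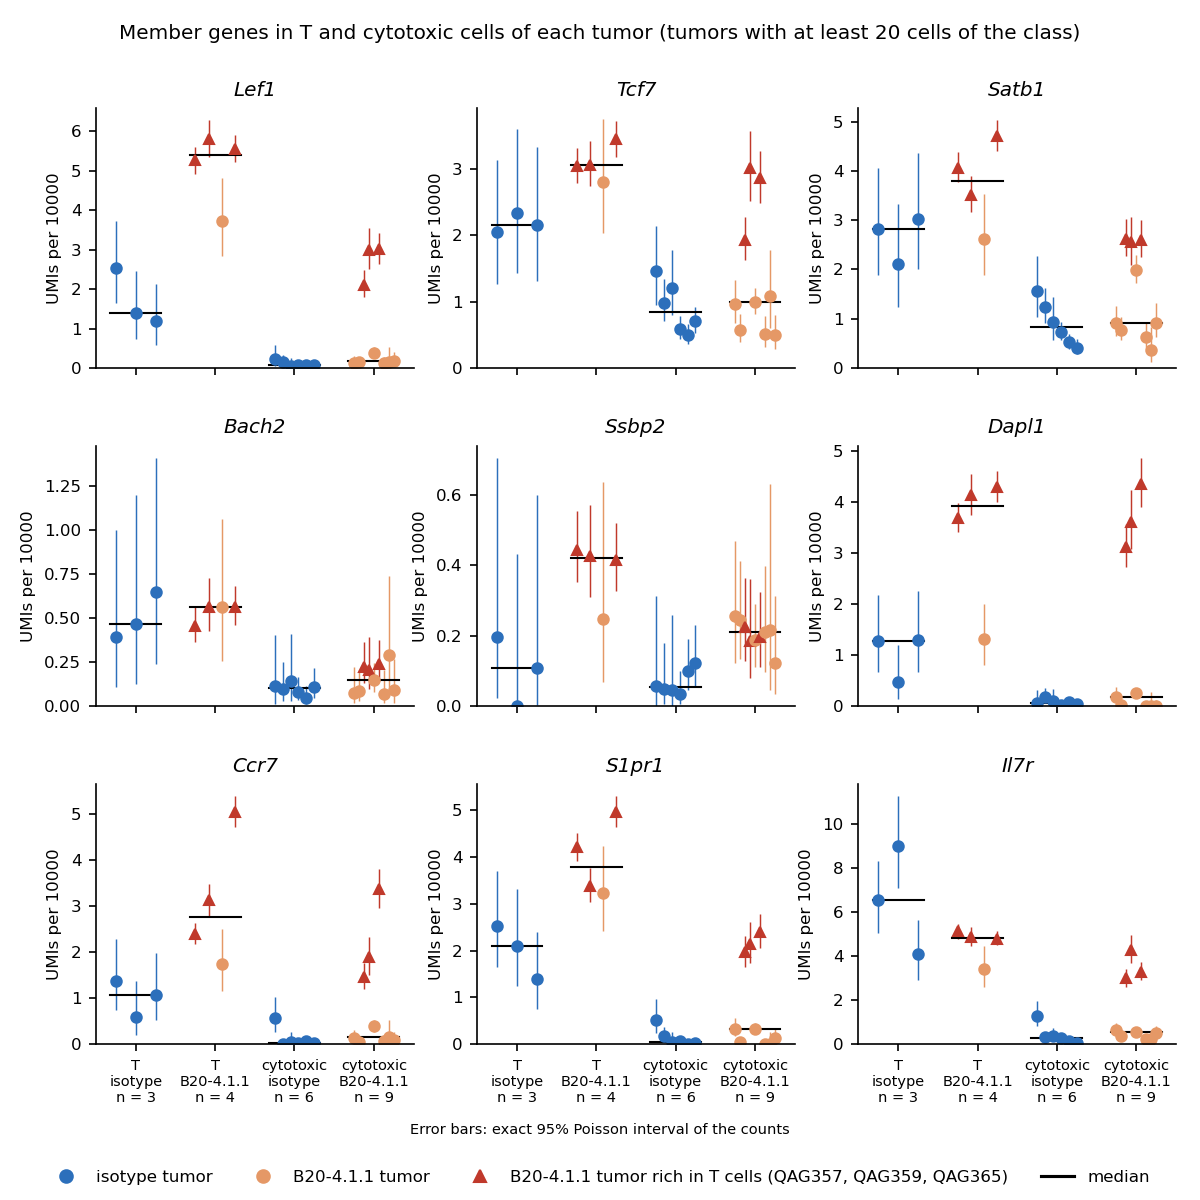
UMIs per 10000 (y axis) of each member gene in T and cytotoxic cells of single tumors with at least 20 cells of the class, by treatment (x axis). Triangles are the 3 T-cell-rich B20-4.1.1 tumors, circles the other tumors, bars exact 95% Poisson intervals of the counts and horizontal lines group medians. In cytotoxic cells of B20-4.1.1 tumors, the triangles sit above the other 6 tumors for Lef1, Dapl1, Ccr7, S1pr1 and Il7r, with Dapl1 between 3.12 and 4.35 against at most 0.245.

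Of the 7 members tested in T cells, 4 were called higher under B20-4.1.1 (Lef1, Dapl1, Ccr7 and S1pr1) and none lower. Over all genes tested, 162 of 2366 (6.85%) were called, 84 of them higher (3.55%). In 5 of the 7 members every treated tumor lay above every isotype tumor, as in 8.79% of all genes tested. The median log2 fold change of the 7 was 1.10, against -0.00 over all genes. These calls rested on the T-cell-rich tumors. Without them, with QAG360 as the lone treated tumor and its spread assumed to be like that of the others, 0 of 7 were called by edgeR (28 of 2169 genes in all, 161 at an unadjusted p under 0.05, among the members only Lef1). Lef1 was then 1.27 higher (adjusted p = 0.19), Ccr7 0.92 (0.81), S1pr1 0.84 (0.74) and Dapl1 0.51 (0.99), with 1.29% of all genes called. In a fit with more tumors and a lower UMI minimum, changes that were not separated, these differences were not seen. At a UMI minimum of 1000 without the T-cell-rich tumors (6 isotype and 5 treated tumors, chosen after seeing the data), Lef1 was at -0.43, Dapl1 at -0.26, Ccr7 at 0.05 and S1pr1 at 0.07, with a median of -0.03 over the 7 members (adjusted p at least 0.887, edgeR). No gene was called in that fit, 95 genes had an unadjusted p under 0.05, and no member was among them.

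When the UMI minimum per cell was lowered from 2500 to 1000, 6 isotype and 8 B20-4.1.1 tumors had 20 T cells and no member was called by edgeR, with 2 of 1726 genes called in all (0.116%) and 202 at an unadjusted p under 0.05, among them Dapl1 and Ccr7. Lef1 then differed by 0.34 (adjusted p = 0.72), Dapl1 by 1.16 (0.40), Ccr7 by 0.75 (0.42) and S1pr1 by 0.41 (0.47). When cytotoxic cells with CD3 genes were added to the T cells, all 15 tumors and all 9 members entered and none was called by edgeR, with 1 of 6312 genes called (0.0158%) and 926 at an unadjusted p under 0.05, among them 7 of the members. The 9 fold changes were all above 0 in that fit, from 0.90 for Il7r to 3.32 for Dapl1 (adjusted p = 0.47 and 0.24). With pool as a random effect in the 7-tumor fit, Lef1 remained called (1.67, adjusted p = 0.027, limma) and Dapl1 (1.88), Ccr7 (1.65) and S1pr1 (1.11) did not (adjusted p = 0.50, 0.54 and 0.071), while 5.96% of all genes were called. Other settings kept more of the calls. DESeq2 called the same 4 members (8.24% of all genes). Sums per pool called Lef1, Tcf7, Ssbp2, Dapl1, Ccr7 and S1pr1 of 9 tested (5.26%), with 2 isotype and 2 B20-4.1.1 pools. Both of these treated pools hold T-cell-rich tumors, and B20-4.1.1 pool 3 had too few T cells to enter. Gates at 3 markers, with 6 tumors per group, called Lef1, Dapl1 and S1pr1 (6.8%). That setting also moved cells with 2 cytotoxic genes and at least 3 CD3 genes into the T class. In cells with 2 cytotoxic genes, Lef1 was at 3.58 in the T-cell-rich and 0.425 in the other tumors. All of these fits contain the T-cell-rich tumors.

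Other properties of the T cells moved with the T-cell-rich tumors. Foxp3, the regulatory T cell factor, was detected in 2.2% of their T cells and in 8.9% of those of the other tumors. The 8 cytotoxic genes did not move together. Nkg7 was detected in 18.4% and 38.9%, Gzmb in 1.25% and 3.68% and Klrk1 in 0.333% and 2.11%. Prf1 went the other way, at 7.15% and 2.63%, and Klrd1 was alike at 7.23% and 6.84%. Gzma (0.416%), Ncr1 and Klre1 (0.0831% each) were seen only in T cells of the T-cell-rich tumors, too rarely to compare with the 190 other T cells. The T gate admits cells with fewer than 2 of these 8 genes, so it limits how often they can be detected here. The 7 epithelial markers summed to 0.585 to 2.69 UMIs per 10000 in T cells of the isotype tumors compared and to 1.37 to 1.79 in the B20-4.1.1 tumors, with no Krt5 UMI in any T cell. The 7 macrophage markers summed to 0.323 to 1.07 and 0.373 to 0.725. Median depth per T cell was 3356.5 to 4063 UMIs in the isotype and 3294 to 3866 in the B20-4.1.1 tumors. The part of the Foxp3 and Nkg7 cells in the result was not tested.

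Cytotoxic cells were numerous enough in all 15 tumors, with 26 to 168 per tumor. Lef1 ran from 0.0466 to 0.224 in isotype tumors (median 0.0849, n = 6) and from 0.117 to 3.00 in B20-4.1.1 tumors (median 0.184, n = 9). The 3 T-cell-rich tumors were at 2.11, 2.99 and 3.00, and the other 6 treated tumors at 0.117 to 0.392. Those 6 overlapped with the isotype tumors.

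Dapl1 ran from 0.0114 to 0.173 in isotype tumors (median 0.0668) and from 0 to 4.35 in B20-4.1.1 tumors (median 0.178), with 3.12, 3.61 and 4.35 in the T-cell-rich tumors and 0 in the 3 tumors of pool 3, where a count of 0 allows up to 0.0701 to 0.216. Ccr7 ran from 0 to 0.561 in isotype tumors (median 0.0301) and from 0.0526 to 3.37 in B20-4.1.1 tumors (median 0.144). The T-cell-rich tumors were at 1.45, 1.88 and 3.37. S1pr1 ran from 0 to 0.505 (median 0.0518) and from 0 to 2.40 (median 0.323), with 1.96, 2.14 and 2.40 in the T-cell-rich tumors. Il7r ran from 0.0677 to 1.29 (median 0.279) and from 0.216 to 4.27 (median 0.549), and here, unlike in T cells, the T-cell-rich tumors were the highest, at 2.98, 4.27 and 3.28.

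Tcf7 and Satb1 were present in cytotoxic cells of every tumor. Tcf7 ran from 0.498 to 1.46 in isotype tumors (median 0.845) and from 0.490 to 3.01 in B20-4.1.1 tumors (median 0.990). Satb1 ran from 0.406 to 1.57 (median 0.831) and from 0.360 to 2.63 (median 0.919), with QAG360 at 2.00, nearer to the T-cell-rich tumors than to the rest. Bach2 ran from 0.0443 to 0.140 and from 0.0701 to 0.288. For Ssbp2 the T-cell-rich tumors did not lead, and its groups only just failed to overlap, at 0.1219 in the highest isotype and 0.1226 in the lowest treated tumor. It ran from 0.0342 to 0.122 in isotype tumors and from 0.123 to 0.254 in B20-4.1.1 tumors, with the T-cell-rich tumors at 0.184 to 0.224. The share of all genes without overlap in cytotoxic cells was not computed, so this is a description only. After thinning to 2500 UMIs, Ssbp2 was detected in 3.62% of cytotoxic and 2.15% of epithelial cells, so it was sparse in both and hardly set them apart.

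No member was called between treatments in cytotoxic cells. Of the 9, 4 passed the filter on low counts, S1pr1 (3.76 ± 1.06, adjusted p = 0.13), Il7r (2.63 ± 0.75, 0.13), Satb1 (1.15 ± 0.41, 0.21) and Tcf7 (1.00 ± 0.43, 0.29, all log2 fold changes from edgeR). Over all genes, 2 of 5353 (0.0374%) were called by edgeR, 87 by DESeq2, and 763 had an unadjusted p under 0.05 in edgeR, among them all 4 members. DESeq2 called no member either. Without the T-cell-rich tumors, Il7r was at 0.75, Satb1 at 0.47 and Tcf7 at -0.01 (adjusted p = 0.72, 0.80 and 1.0). Without pool 3, in which Dapl1 was at 0, the members Dapl1 (5.08, adjusted p = 0.014), S1pr1 (4.19, 0.019), Il7r (3.03, 0.021), Satb1 (1.45, 0.028) and Ssbp2 (1.61, 0.0088) were called, 5 of 6 tested against 3.24% of all genes. With any other single pool left out, no member was called. Without the filter on low counts, Ccr7, Dapl1, Il7r, Lef1, S1pr1 and Ssbp2 were called (adjusted p from 0.0029 to 0.014), 6 of 9 against 0.452% of all genes. The fits without pool 3 and without the filter both contain the T-cell-rich tumors.

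The same genes were compared between T and cytotoxic cells of the same tumor, so that pool and treatment were shared. At least 20 cells of both classes were found in 7 tumors, and all 9 members were tested. Of these, 8 were called higher in T cells and none lower, against 613 of 5736 genes (10.7%) called in all and 283 (4.93%) higher in T cells. The largest folds were those of Il7r (1.88 ± 0.41, adjusted p = 0.0036), Lef1 (1.79 ± 0.29, 0.00014) and S1pr1 (1.77 ± 0.32, 0.00065). Bach2 (1.52 ± 0.22, 4.9e-05), Ccr7 (1.21 ± 0.30, 0.0092), Ssbp2 (1.01 ± 0.24, 0.0066), Satb1 (0.94 ± 0.18, 0.00095) and Tcf7 (0.74 ± 0.17, 0.0048) followed. Dapl1 did not pass (0.70 ± 0.29, adjusted p = 0.16, all from edgeR with the tumor as a block). The median over the 9 was 1.21, against 0.01 over all genes.

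Fold differences between the classes were larger where T cells were few. Without the T-cell-rich tumors, the 4 remaining tumors gave calls for all 6 members tested (326 of 2913 genes in all, 11.2%), with 4.11 ± 0.33 for Il7r, 4.05 ± 0.35 for S1pr1, 3.75 ± 0.29 for Lef1 and 3.47 ± 0.52 for Ccr7 (adjusted p = 2.9e-07, 5.6e-07, 2.1e-07 and 0.00025, edgeR). Tcf7 and Satb1 rose less, to 1.44 and 1.38, and Dapl1, Bach2 and Ssbp2 fell below the filter. Members low in cytotoxic cells of these tumors, such as Lef1, Ccr7 and S1pr1, could pass that filter only through their T cell counts. That all members tested were called higher in T cells was therefore partly set by the filter. The cytotoxic class of the T-cell-rich tumors carried Lef1, Tcf7, Dapl1, Ccr7, S1pr1, Il7r and Satb1 at levels above those of every other tumor, but not Bach2 or Ssbp2. Whether the fold differs between the tumors was not tested.

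**Figure D3:**
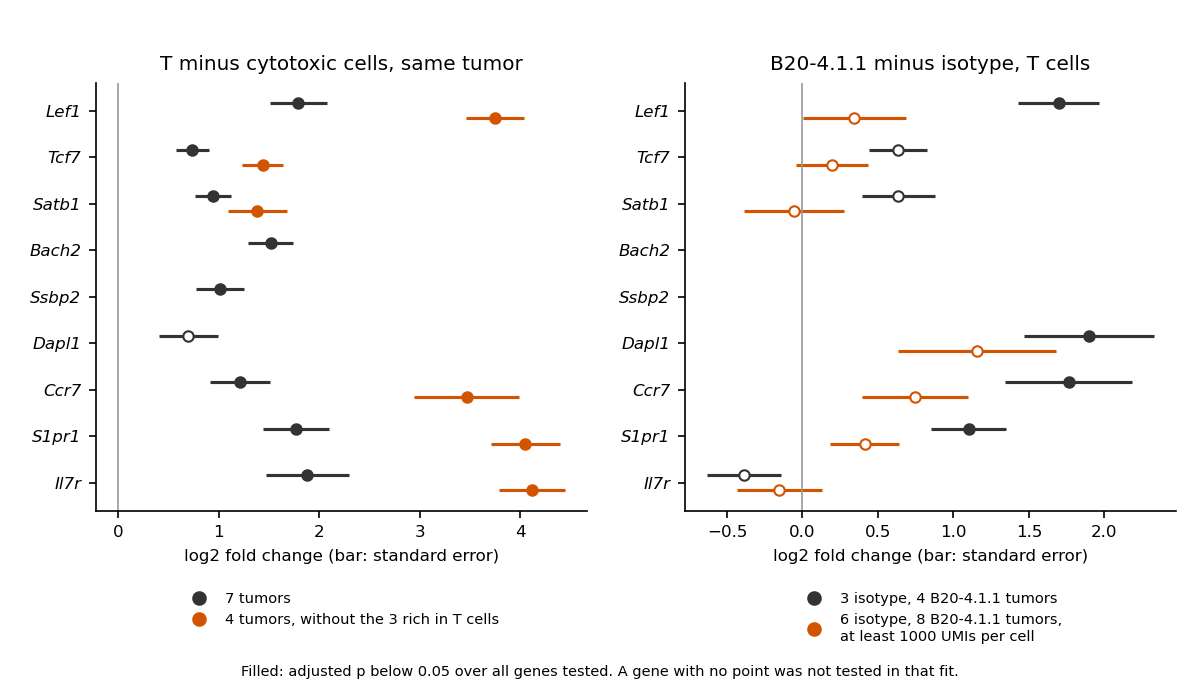
Log2 fold changes (x axis) of the member genes (y axis) with standard errors, for T minus cytotoxic cells of the same tumor (left) and for B20-4.1.1 minus isotype in T cells (right). Filled points passed an adjusted p of 0.05 over all genes tested, and missing points were not tested. On the left the points stay above 0 with and without the T-cell-rich tumors. On the right no point is filled once cells down to 1000 UMIs are used.

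Within the cytotoxic class, the levels of most members were lower in cells with more cytotoxic genes detected, which is a description over pooled cells. In the T-cell-rich tumors, Lef1 was at 3.58 in 224 cells with 2 cytotoxic genes, 2.03 in 77 cells with 3, 0.827 in 31 cells with 4 and 0.817 in 28 cells with at least 5. Median depth of these cells was 4351, 5360, 7386 and 4432.5 UMIs in the same order. Dapl1 in them was at 4.72, 4.33, 0.124 (3 UMIs in 1 cell) and 0.691, and Ccr7 at 2.99, 2.18, 0.703 and 0.440. Il7r was at 3.78, 4.33, 1.41 and 1.32, and S1pr1 at 2.89, 2.06, 0.248 and 0.440, the last 2 on 6 and 7 UMIs. Bach2 and Ssbp2 did not follow this order, with their highest values, 0.503 and 0.629 on 8 and 10 UMIs, in cells with at least 5 cytotoxic genes. In the other 12 tumors, Lef1 was at 0.425 in 159 cells with 2 cytotoxic genes and at 0.104 in 272 cells with at least 5. The T-cell-rich tumors thus held mostly cells at the edge of the gate, and the other tumors mostly cells well inside it.

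T cells with a UMI of Cd4 and none of Cd8a or Cd8b1 (CD4-type) and those of the reverse kind (CD8-type) were told apart in the 3 T-cell-rich tumors, QAG357, QAG359 and QAG365. Dapl1 was higher in CD8-type cells of all 3, at 4.85, 6.62 and 6.33, than in CD4-type cells, at 3.44, 3.63 and 3.41. The ranges did not overlap, but the share of all genes that separate in this way was not computed. Lef1 went the other way, at 5.68, 5.99 and 6.47 in CD4-type and 4.27, 4.89 and 3.87 in CD8-type cells.

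Satb1, Bach2, Ssbp2 and S1pr1 were likewise higher in CD4-type cells of each tumor. Bach2 and Ssbp2 were sparse in T cells of these tumors, at up to 0.563 and 0.444, so their direction rests on far fewer UMIs. Satb1 was at 4.68, 4.303 and 6.37 in CD4-type against 3.03, 2.89 and 3.18 in CD8-type cells. For S1pr1 the values were 5.05, 3.99 and 6.02 against 3.34, 3.11 and 3.32. Il7r, at 5.23, 5.74 and 5.48 against 4.43, 4.62 and 3.105, and Tcf7, at 3.17, 3.06 and 3.94 against 2.80, 3.02 and 2.54, were also higher in CD4-type cells of each tumor, by margins within the counting intervals for Tcf7 in QAG357 and QAG359. Ccr7 differed more between tumors than between the types, at 2.31, 2.72 and 4.83 in CD4-type and 2.65, 3.33 and 5.21 in CD8-type cells. With 3 tumors no test was made, and how many of all genes go the same way in each tumor was not counted. Median depth was alike, 3783.5 UMIs in CD4-type and 3752 in CD8-type cells.

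In the other 12 tumors the types were fewer (57 CD4-type and 55 CD8-type T cells). Il7r there was at 9.18 in CD4-type and 2.96 in CD8-type cells, compared with 5.46 and 3.93 in the T-cell-rich tumors. Of the 2 types, the CD4-type was thus the one with higher Il7r outside the T-cell-rich tumors. Lef1 was at 3.23 and 1.30 and Dapl1 at 0.506 and 1.502 in the 2 types. Among CD4-type cells with a Foxp3 UMI (12 in the T-cell-rich and 9 in the other tumors), Dapl1 had 1 and 0 UMIs and Satb1 8 and 0.

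**Figure D4:**
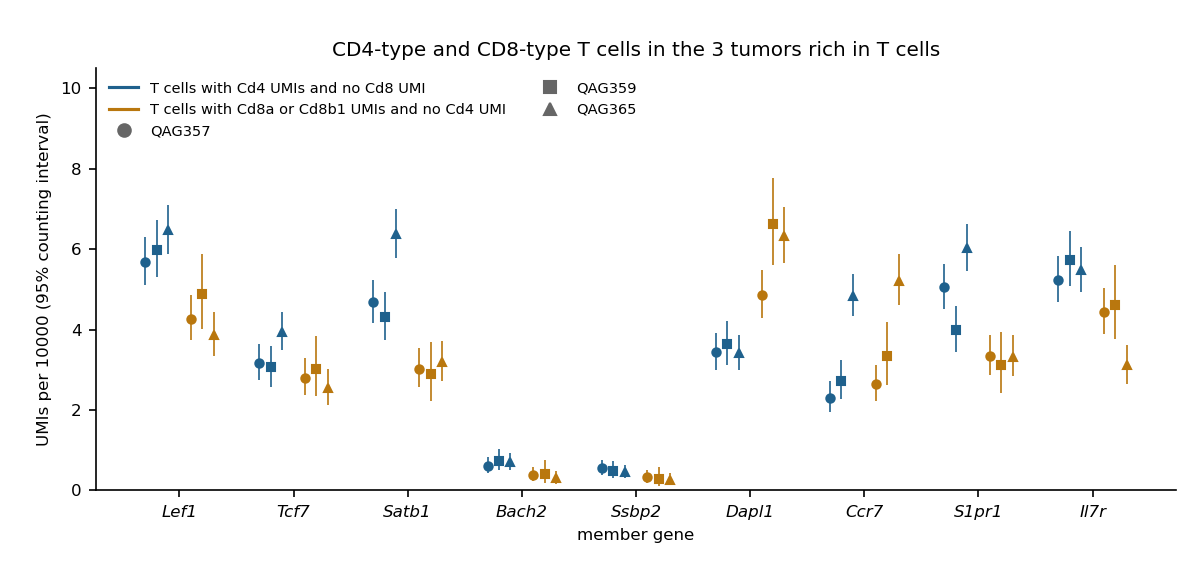
UMIs per 10000 (y axis) of each member gene (x axis) in CD4-type and CD8-type T cells of the 3 T-cell-rich tumors, with exact 95% Poisson intervals, which cover counting error only. Dapl1 is the gene with CD8-type values (4.85 to 6.62) clearly above CD4-type values (3.41 to 3.63), while Lef1, Satb1 and S1pr1 are higher in CD4-type cells.

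The members were also counted within single cells, after thinning to 2500 UMIs. At least 4 of the 9 were detected in 61.2% of 1203 T cells of the T-cell-rich tumors (exact binomial 95% interval 58.4% to 63.9%) and in 30.5% of 190 T cells of the other tumors (24.1% to 37.6%). No member was found in 1.25% and 21.1% of these cells. In cytotoxic cells the share with at least 4 members was 40.8% of 360 in the T-cell-rich tumors and 1.53% of 1048 elsewhere. The intervals cover counting error only, and cells of 1 tumor are not replicates.

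Pairs of members were weakly related from cell to cell within the T-cell-rich tumors, the only ones for which this was computed. S1pr1 was detected in 61.2% of 820 T cells with Lef1 and in 48.6% of 383 without it, and Satb1 in 59.8% and 47.8%. Dapl1 was at 38.3% and 38.4%. The correlation of detection with Lef1 lay between -0.04 for Ssbp2 and 0.12 for S1pr1, which in counts this sparse is no finding.

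**Figure D5:**
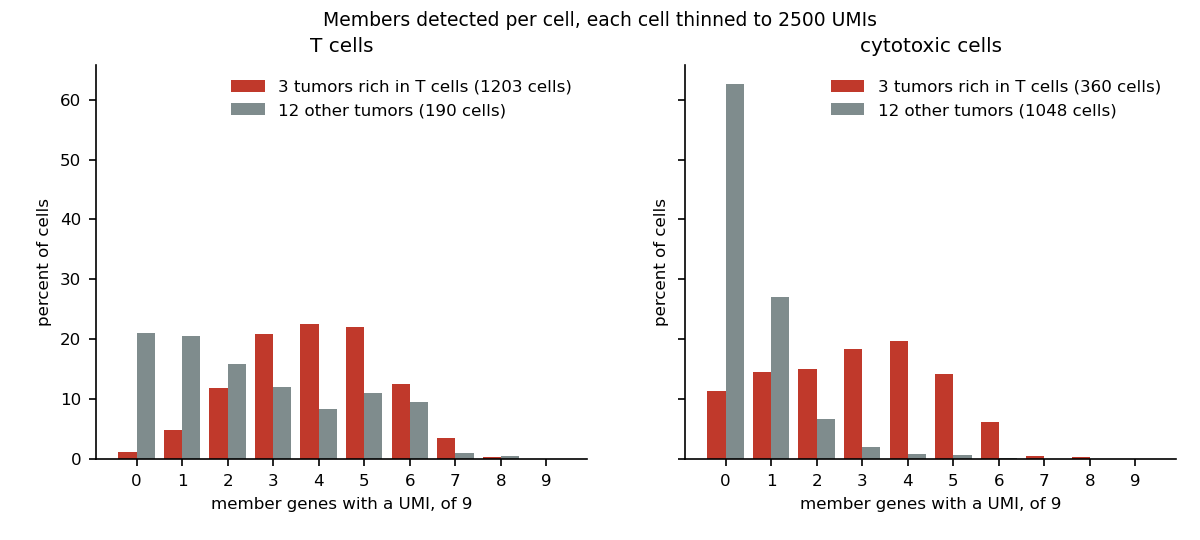
Percentage of cells (y axis) by the number of the 9 member genes with a UMI (x axis), in T cells (left) and cytotoxic cells (right), each cell thinned to 2500 UMIs. In the T-cell-rich tumors 61.2% of T cells carry at least 4 members, and in the other tumors 62.7% of cytotoxic cells carry none.

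B cells were compared with T cells in the 3 T-cell-rich tumors, the tumors with at least 10 of both, so this comparison rests on them. Ccr7 was as high in B as in T cells, at 1.71, 3.30 and 5.29 in B cells and 2.41, 3.13 and 5.06 in T cells of QAG357, QAG359 and QAG365. The order of the tumors was the same in both classes. The fitted difference was 0.19 ± 0.15 (adjusted p = 0.42, edgeR with the tumor as a block).

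Bach2 was the member higher in B cells, at 0.917, 1.10 and 0.881 against 0.455, 0.562 and 0.563 in T cells (T minus B -0.78 ± 0.26, adjusted p = 0.027, edgeR). The other 7 were called higher in T cells. S1pr1 (1.64 ± 0.18) and Satb1 (1.09 ± 0.16) were present in both, with adjusted p = 3.7e-08 and 4.5e-06 (edgeR). The others were nearly absent from B cells, with 1 UMI each of Il7r and Dapl1, 2 each of Tcf7 and Ssbp2 and 5 of Lef1 in all 157 cells (adjusted p at most 7.2e-05, edgeR), and no fold is given for them. In this comparison 1373 of 6104 genes (22.5%) were called, 653 (10.7%) higher in T cells. The call for Bach2 was lost with DESeq2 (adjusted p = 0.28), without pool 1 (0.24) and without the filter on low counts (0.17).

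Dendritic cells were split into 2 kinds by maturation genes, and Ccr7 and Tcf7 were the members that differed clearly between them. At least 2 of 6 maturation genes (among them Fscn1 and Ccl22) were detected in 57 of the 95, and these held 671 of the 672 Ccr7 UMIs. Ccr7 was detected in 77.2% of the mature cells (exact binomial 95% interval 64.2% to 87.3%) and in 1 of the 38 others. Its level was 13.3 UMIs per 10000 in 29 mature cells of isotype tumors and 15.1 in 28 of B20-4.1.1 tumors. All 32 Tcf7 UMIs of the class were in mature cells too. Il7r was found in both kinds, at 2.24 in mature and 1.19 in the other cells. With 2 to 11 dendritic cells per tumor, treatments were not tested.

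Macrophages carried Il7r and S1pr1. Il7r was detected in 36.1% of 1267 macrophages, at 1.08 UMIs per 10000 under the isotype antibody and 1.48 under B20-4.1.1, and at up to 2.59 and 3.20 in QAG370 and QAG372 of pool 3. S1pr1 was detected in 19.4%, at 0.422 and 0.368. Lef1, Ccr7 and Dapl1 were each detected in under 0.5% of macrophages.

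Genes related to the members were counted from fixed lists. In T cells under B20-4.1.1 against isotype, 25 of 30 other naive and circulating T cell genes were tested, 5 were called higher and 1 lower, with a median of 0.31. The higher genes included the costimulatory receptor Cd27 (2.07 ± 0.25), the growth factor binding protein gene Igfbp4 (1.80 ± 0.31), and Klf2, a factor that drives S1pr1 (1.36 ± 0.28). Itga4, an integrin of tissue entry, was lower (-1.85 ± 0.39, adjusted p from 0.0019 to 0.015 for these 4, edgeR).

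Of 30 activation and tissue residence genes, 16 were tested, none was called higher and 7 lower, with a median of -1.99. The lower genes included Cd44 (-2.64 ± 0.48), Il2rb (-2.59 ± 0.40), Maf (-2.55 ± 0.68) and Tnfrsf4 (-2.16 ± 0.42, adjusted p from 0.0036 to 0.040, edgeR). Without the T-cell-rich tumors the naive list had 2 of 19 called higher and the activation list 1 of 17 higher and 1 lower. At a UMI minimum of 1000, no gene of either list was called. Of 16 ligands, partners and regulators of the members, 6 were tested and Klf2 alone was called, and of 13 paralogs 2 were tested and none was called. In cytotoxic cells no gene of any list was called between treatments by edgeR, with a median of 0.77 over 22 tested naive genes and of -0.24 over 20 tested activation genes.

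Between T and cytotoxic cells of the same tumor, 17 of 29 tested naive genes were called higher in T cells and none lower (median 0.76), led by Igfbp4 (1.85 ± 0.27), Il6ra (1.61 ± 0.25), Trat1 (1.58 ± 0.30) and Cd28 (1.49 ± 0.25). Of 24 tested activation and residence genes, 13 were lower in T cells, with the resident integrin genes Itga1 (-5.09 ± 0.42) and Itgae (-2.82 ± 0.18) and the effector genes Ifng (-2.96 ± 0.53) and Tbx21 (-2.66 ± 0.47) in front. Another 4 were higher, Tnfrsf4 (4.96 ± 0.44), Maf (3.35 ± 0.47), Icos (2.48 ± 0.40) and Ctla4 (2.39 ± 0.46), which are known from helper and regulatory T cells (adjusted p at most 0.0011 for these 12 genes, edgeR). Klf2 (1.23 ± 0.27) and Stat5b (1.14 ± 0.19), the latter a transducer of interleukin-7 signals, were the called partners of the members, and of 5 tested paralogs Ssbp4 was lower (-0.52 ± 0.17, adjusted p = 0.047, edgeR).

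Between T and B cells, 18 of 30 naive genes were higher in T cells, led by Cd28, Trat1, Nsg2 and Ccr9, and 3 were lower, Cxcr4, Itga4 and Foxp1 (-1.63 ± 0.16, -1.02 ± 0.22 and -0.81 ± 0.12). Of 16 tested activation genes 11 were higher, led by Icos, Tox, Cxcr6 and Maf, and 3 lower, Nr4a1 and Bhlhe40 among them. The residence marker Cd69, whose product opposes S1PR1 at the cell surface, was the remaining lower gene (-0.96 ± 0.14, adjusted p = 3.5e-06, edgeR). Of 7 tested paralogs, Ssbp3 and Ssbp4 were higher and the B cell homing receptors Cxcr5 and Ccr6 lower.

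The genes outside the 9 whose T cell level across the 7 tumors was most like the members' mean were Mrpl58, Psme2, Ubtf, Npc2, Nol7, Dgka, Gm9493 and Slfn2, out of 2715 genes at 50 or more CPM. Their Pearson r of log2(CPM + 1) lay between 0.92 and 0.96. The points share pools and depth, and 3 of the 7 tumors are the T-cell-rich ones.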

How the data were processed

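Per the submitters' processing notes and the file headers, the authors aligned reads to mm10 and counted UMIs with Cell Ranger 6.1.2, separated the tumors of a pool by their multiplexing oligonucleotides, and analyzed them with Seurat 4.3.0. They deposited 1 matrix of raw UMI counts per tumor, with 31053 genes and 12 multiplexing features, which were not used here. Gene positions are from GENCODE vM21, promoter windows from RefSeq.

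A cell was kept if it had 2500 to 27500 UMIs, as the study did, with no more than 20% of them mitochondrial. Classes were gated on marker genes, with thresholds set after the data were seen. Epithelial cells had at least 15 epithelial marker UMIs per 10000, B cells at least 2 of 6 markers, dendritic cells at least 2 of 12 with at most 3 of 7 macrophage markers, and macrophages at least 4 of 7. Cells with at least 2 markers of another lineage stayed out, which also removed mixed droplets, and no doublet caller was run. Of the kept cells 2863 fell in no class.

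Counts were summed per tumor and class, for tumors with at least 20 cells (10 for B cells), and tested across all genes with edgeR's quasi-likelihood test (TMM, filterByExpr, two-sided, Benjamini-Hochberg at 0.05), with the tumor as a block between classes. The steps were tested on simulated data. The alternatives were a UMI minimum of 1000, gates at 3 markers, DESeq2, no filter, thinned cells, leaving out pools or the T-cell-rich tumors (over 50% of kept cells with at least 2 CD3 genes), sums per pool, and pool as a random effect in limma. Intervals are exact Poisson (counts) or Clopper-Pearson (shares) at 95%, and a count of 0 was read as allowing 3 counts. Fits used DESeq2 1.42.0, statmod 1.5.0, limma 3.58.1 and edgeR 4.0.16 under R 4.3.3, and the rest scipy 1.17.1, matplotlib 3.10.9, pandas 2.3.3 and numpy 2.4.6 under Python 3.11.15.

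All 9 members are named in each comparison. From each list, up to 4 called genes per direction with the largest folds and an average log2 CPM of at least 4 are named. Foxp3, Nkg7 and the other cytotoxic genes were named after their values were seen. A gene that the rule would name is not reported here. The members and lists were chosen with earlier results of these data known.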

Additional observations from a re-analysis of the deposited data

Results flagged for a closer look

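In 5 of 27 sets of member levels (1 gene, 1 class and 1 treatment, with 4 to 9 tumors), 1 tumor lay far from the others by Dixon's criterion at 95%, which chance alone gives in about 1 of 20 sets. Of the 5, 3 concerned 1 isotype tumor, QAG364, in cytotoxic cells. There Ccr7 was at 0.561 UMIs per 10000 (10 UMIs in 30 cells) with the next tumor at 0.0554, Il7r at 1.29 with the next at 0.373, and S1pr1 at 0.505 with the next at 0.173. In T cells of the 4 B20-4.1.1 tumors, Bach2 was lowest in QAG357 at 0.455, with the next at 0.560, and Ssbp2 was lowest in QAG360 at 0.249 on 4 UMIs, with the next at 0.416. What sets these tumors apart was not tested.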

How the results depend on the processing

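The number of genes called between treatments in T cells was 162. It was 2 at a UMI minimum of 1000, 654 without the filter on low counts, 88 with thinned cells, 28 without the T-cell-rich tumors, 404 with sums per pool, 1 with all CD3-bearing cells, and 60 to 287 when each pool was left out (lowest without isotype pool 1, highest without isotype pool 2). Of the settings added after seeing the data, all CD3-bearing cells without the T-cell-rich tumors gave 2, the same cells with pool as a random effect 0 (limma, 1091 at an unadjusted p under 0.05), a UMI minimum of 1000 without those tumors 0 (edgeR, 95) and the same minimum with pool as a random effect 16. In cytotoxic cells the count of 2 became 87 with DESeq2, 72 without the filter, 1 with thinned cells, 0 with pool as a random effect (limma, 488), 0 with sums per pool (edgeR, 522) and 0 to 204 with each pool left out (0 without isotype pool 1 or B20-4.1.1 pool 2, 204 without B20-4.1.1 pool 3). Between T and cytotoxic cells the count of 613 became 1050 at a UMI minimum of 1000, 333 with thinned cells, 326 without the T-cell-rich tumors and 216 to 611 with each pool left out, lowest without B20-4.1.1 pool 2. Between T and B cells 1373 became 803 with DESeq2 and 1075 without B20-4.1.1 pool 1. The cause of these changes was not tested.

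Over the members, 308 alternative values were computed, of which 246 kept their direction and side of the threshold, 37 lost a call, 11 gained one and 14 turned direction. None turned between T and cytotoxic or T and B cells. In T cells between treatments, Il7r became 0.0801 with gates at 3 markers, 0.90 with all CD3-bearing cells, 1.17 with these and pool as a random effect, -0.46 to 0.43 with each pool left out, highest without isotype pool 1, and 0.13 at a UMI minimum of 1000 without the T-cell-rich tumors. In that last setting Lef1 became -0.43, Dapl1 -0.26, Tcf7 -0.0279 and Satb1 -0.58. Satb1 also became -0.0581 at a UMI minimum of 1000, -0.17 with pool as a random effect added, and -0.0017 with all CD3-bearing cells without the T-cell-rich tumors. In cytotoxic cells Tcf7 became -0.0054 without those tumors and -0.0195 with gates at 3 markers as well.

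Not run were the T cell comparison of treatments in CD4-type or CD8-type cells, which left no isotype tumor with 20 cells, and T against B cells without the T-cell-rich tumors or without B20-4.1.1 pool 2. Where 1 tumor remained in a group, it was assumed to vary like the others. No paired analysis was possible because the pool numbers follow accession order and pair no isotype with a B20-4.1.1 pool. T cells were few, with 20 or 21 in each isotype tumor compared, and this depth limits what the treatment comparison in T cells can show.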
